A study of Mus musculus with 4 samples.

Results

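The genes described here are 10 genes of pluripotency and of Nodal signalling, namely Gdf3, Nodal, Lefty1, Lefty2, Nanog, Pou5f1, Sox2, Klf4, Esrrb and Dppa3, out of 22367 protein-coding genes on the assembled mouse chromosomes. They are listed by name for their role in ESCs, and were chosen with results of these data known. All 10 are in the GENCODE vM1 annotation of mm9. YAP ChIP-Seq was run on E14Tg2a cells, a mouse ESC line kept undifferentiated, in which chromatin was precipitated with a rabbit polyclonal antibody against YAP. Each group held 2 replicates, anti-YAP and input, and the labels of both name mouse ESCs and no treatment. The values below are those of the peak lists of the 2 anti-YAP replicates, and the input was not analysed here. A peak is a place where the mapped positions of reads (tags) pile up above the local background of the same library, and its summit is the position of the highest pile. The lists give no expression, so the pluripotent state of the cells was not checked from the data.

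YAP is a coactivator that does not bind DNA by itself and is brought to chromatin mainly by the TEAD transcription factors, whose core motif is CATTCC. In ESCs, the pluripotent state is held by a network of transcription factors around Pou5f1 (also called Oct4), Sox2 and Nanog, with Klf4 and Esrrb as further members that act in the naive state. Nodal and Gdf3 are secreted ligands of the TGF-β family, which signal through activin receptors and SMAD2 and SMAD3, while Lefty1 and Lefty2 are secreted inhibitors that Nodal signalling itself induces. Dppa3 (Stella) is a maternal and germline protein that protects DNA methylation states in the early embryo. On mouse chromosome 6, Gdf3, Dppa3 and Nanog lie next to each other and are active together in pluripotent cells.

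A YAP peak was found in Gdf3 and in none of the other genes. The peak was called in replicate 1 and lay on chromosome 6 at chr6:122557991-122559503 (mm9), with its summit at 122558759. Gdf3 is annotated on the minus strand from 122555421 to 122560105 with 1 transcript of 2 exons, and all 1513 bp of the peak were within its single intron, which is 2560 bp long. The summit was 1346 bp downstream of the TSS. The edge of the peak was 211 bp from the first exon and 838 bp from the second, so no exon was touched. The reference sequence around the summit is shown because this was the one peak of either list within 500 kb of any of these genes. It covers chr6:122558609-122558908 on the plus strand, opposite to the direction in which Gdf3 is transcribed, and the capitals mark a match to the TEAD core motif, which reads GGAATG on this strand.

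Gdf3 intron, summit window: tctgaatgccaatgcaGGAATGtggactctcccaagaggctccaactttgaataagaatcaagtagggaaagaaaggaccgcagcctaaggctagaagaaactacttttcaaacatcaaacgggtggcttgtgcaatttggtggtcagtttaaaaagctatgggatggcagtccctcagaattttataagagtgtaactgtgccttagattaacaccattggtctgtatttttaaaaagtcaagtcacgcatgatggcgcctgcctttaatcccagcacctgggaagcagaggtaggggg

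The peak held 2 matches to CATTCC on either strand. The one in the window above begins 134 bp from the summit, at 122558625, and the other begins 698 bp from it, at 122559457, near the edge that faces the TSS. The second is shown with its surroundings from 122559430 to 122559489, again on the plus strand and with the match in capitals. In lower case, ahead of the match, the same stretch holds the letters CATTGT, the core bound by SOX factors.

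Gdf3 intron, edge of the peak: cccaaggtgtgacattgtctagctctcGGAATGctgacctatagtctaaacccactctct

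Such matches were common among the peaks of replicate 1. Whether they were more common there than elsewhere in the genome was not tested. CATTCC was present in 194 (47.2%) of the 411 replicate 1 peaks on assembled chromosomes when whole peaks were searched, and in 54 (13.1%) of the windows of 300 bp around their summits, of the length printed above. Whole peaks were not matched for length, with a median of 1260 bp in the list against 1513 bp for the Gdf3 peak. Within 100 bp of the summit the Gdf3 peak had no match, while 41 (9.98%) of the replicate 1 peaks had one. CATTGT occurred in 209 (50.9%) of the whole peaks. The octamer ATGCAAAT, bound by Pou5f1, and AATCCACA, bound by the Nodal effector FOXH1, were not found in the Gdf3 peak and were present in 70 (17.0%) and 17 (4.14%) of the replicate 1 peaks. These are matches of letters in a window and not binding sites.

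The Gdf3 peak was among the weaker peaks of its list. It held 60 tags, for which the exact 95% Poisson interval is 45.8 to 77.2 and covers counting error only. Spread evenly over the effective genome, the tags of replicate 1 would have left 12.7 in a stretch of this length. The score, a log-scaled p-value from MACS that is higher for stronger peaks, was 52.83 where the cutoff corresponds to 50, and it stood at place 380 among the 447 peaks of replicate 1, with 66 peaks (14.8%) below it. The fold enrichment over the local background was 4.52, against a median of 8.97 for the list, and 40 peaks (8.95%) had a lower one. By number of tags the peak was above the middle, since 272 peaks (60.9%) held fewer. It was also longer than 298 (66.7%) of the peaks, and its 39.7 tags per kb were close to the list median of 38.6. Among the 90 replicate 1 peaks with a coding TSS within 5 kb of the summit, whose median score was 71.87 and median fold enrichment 6.11, its score was at place 76.

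**Figure D1:**
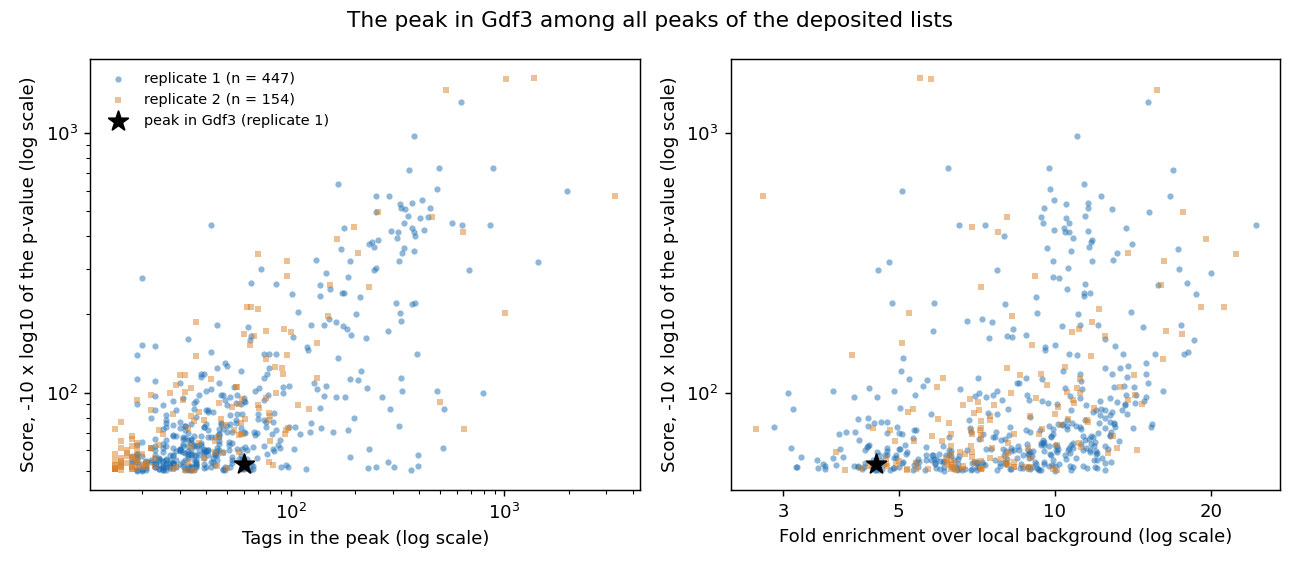
Each point is a peak of replicate 1 (circles, n = 447) or replicate 2 (squares, n = 154), with the score on the vertical log axis against the number of tags (left) and the fold enrichment (right), both on log axes. The star is the replicate 1 peak in Gdf3, at 60 tags, a 52.83 score and 4.52-fold enrichment, which lies near the lower edge of the scores and at the left of the fold enrichments.

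Replicate 2 had no peak in Gdf3, and its nearest summit on chromosome 6 was 1602583 bp from that of replicate 1. Replicate 2 was less deep, with 14965024 tags that MACS counted as unique against 22696949 in replicate 1. At that depth the 60 tags would correspond to 39.6 (30.2 to 50.9 from the Poisson interval), and 82 (53.2%) of the 154 peaks of replicate 2 were called with that number or fewer. Those peaks were not matched for length. The median length in replicate 2 was 1082.5 bp, against 1513 bp for the Gdf3 peak. Whether 39.6 tags over that length would be enough for a call was not tested. Only 8 (5.19%) of the 154 peaks were called at a fold enrichment of 4.52 or lower. The tags of replicate 2 at Gdf3 below the calling cutoff are not given by the list, so a lower enrichment there was not detectable. Peaks near the cutoff were seldom found again. Of the 68 replicate 1 peaks with a score at or below that of Gdf3, 1 (1.47%) overlapped a replicate 2 peak by at least 1 bp, whereas 65 (17.2%) of the 379 above it did so. Both replicates were scored without a control library, and the part of local background in this peak was not tested.

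Most of the Gdf3 peak was in single-copy sequence. The length of 25 bases is the tag size named in the file headers, and the length of the reads is not given. Of the 1489 overlapping 25-mers of the peak, 1346 (90.4%) had no other exact copy in mm9. The median over the 411 replicate 1 peaks on assembled chromosomes was 71.0%, and 82.5% of these peaks were less unique. A further 113 (7.59%) occurred at 2 to 100 places and 30 (2.01%) at more than 100, the limit that was set for the positions of a read in the alignment. Copies with mismatches, which the alignment allowed, were not counted. In the printed summit window 259 of 276 (93.8%) were unique. When the peak was divided into 15 bins of 100 bp, all 25-mers were unique in 6 bins, among them the one with the summit, and the lowest bin had 53.0%. The GC content of the peak was 46.3% and the median of the same 411 peaks was 44.4%.

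**Figure D2:**
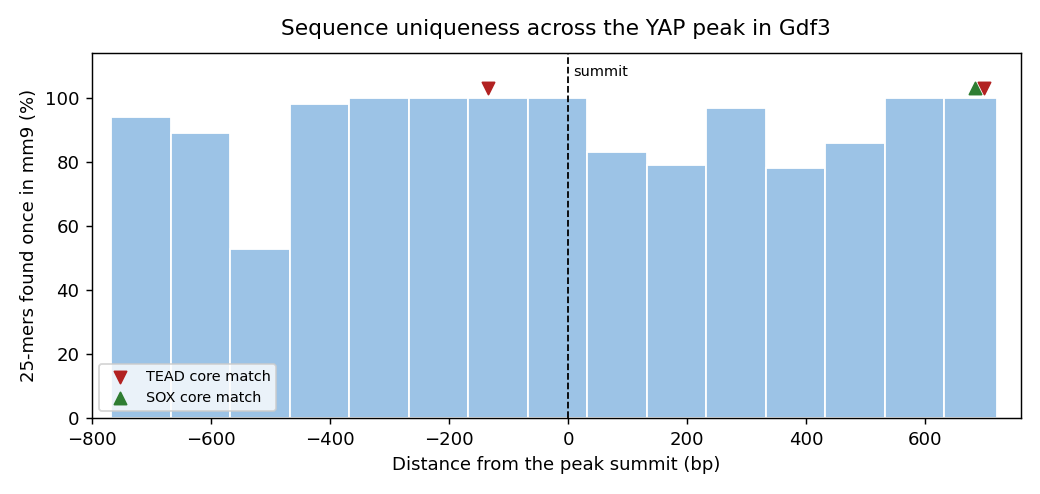
Bars give the single-copy share of 25-mers in mm9 (vertical axis, %) by where the 25-mer begins, in bins of 100 bp along the YAP peak in Gdf3 (horizontal axis, bp from the summit, which is the dashed line), and triangles mark where matches to the TEAD core CATTCC and the SOX core CATTGT begin. The bin at the summit is at 100% and the lowest is at 53.0%.

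Nanog and Dppa3 were near this same peak, so the 3 genes of the chromosome 6 cluster share a single observation. The TSS of Dppa3, on the plus strand at 122576428, was 17669 bp from the summit, and that of Nanog, on the plus strand at 122657507, was 98748 bp from it. The peak was upstream of both. Between Gdf3 and Dppa3 the annotation holds a Y_RNA gene, and between Dppa3 and Nanog it holds the pseudogenes Gm10420 and Gm10224. Closer than Dppa3 was Apobec1, a cytidine deaminase that edits RNA, whose TSS was 6297 bp from the summit on the other side. Slc2a3, a glucose transporter beyond Nanog, had its TSS at 192899 bp. No coding gene had its TSS nearer to the summit than Gdf3. In replicate 2 the nearest peak to each of the 3 genes was again a single one, from 124160781 to 124161524 (15 tags, score 50.94). It was 1601237 bp from the TSS of Gdf3, 1584914 bp from that of Dppa3 and 1503835 bp from that of Nanog.

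**Figure D3:**
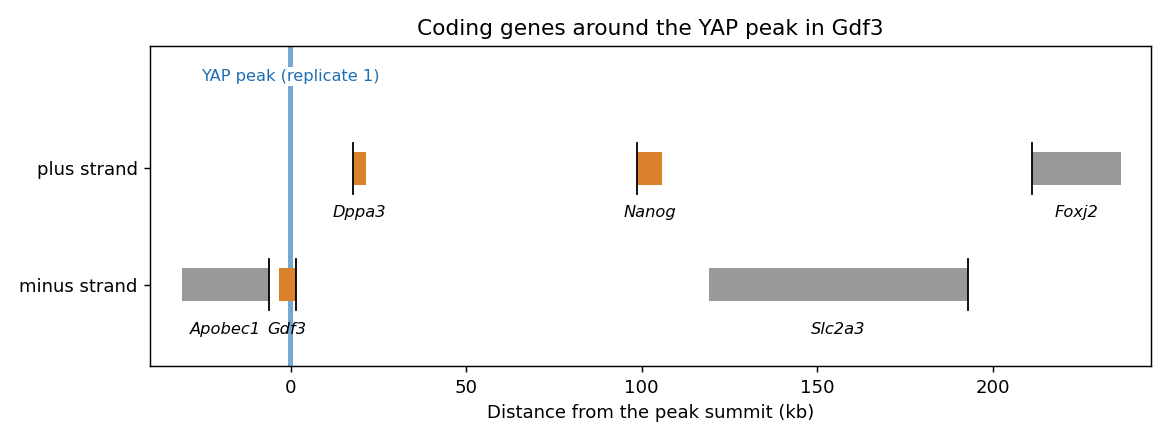
Coding genes around the replicate 1 YAP peak in Gdf3 are drawn to scale by their distance from the summit (horizontal axis, kb), by strand, with the genes described here in orange, other genes in grey and a black bar at each TSS. The peak (blue) is inside Gdf3, with Apobec1 at 6297 bp, Dppa3 at 17669 bp and Nanog at 98748 bp from TSS to summit.

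Counted by distance, 1 of the 10 genes (Gdf3) had a peak of either replicate within 5 kb of the TSS, 2 (with Dppa3) within 50 kb and 3 (with Nanog) within 500 kb. All of these counts come from replicate 1, and replicate 2 gave 0 at each distance. Over all coding genes, 0.657% had a peak within 5 kb, 2.66% within 50 kb and 17.4% within 500 kb. Since the 3 genes share a peak, each of these counts rests on 1 peak that was seen in 1 replicate, and nothing particular to the group can be read from them. No test was made, because of how the genes were chosen. The 2.30 Mb median distance of the 10 genes from the nearest peak of either list can be set beside the median of 1997258 bp over all coding genes.

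**Figure D4:**
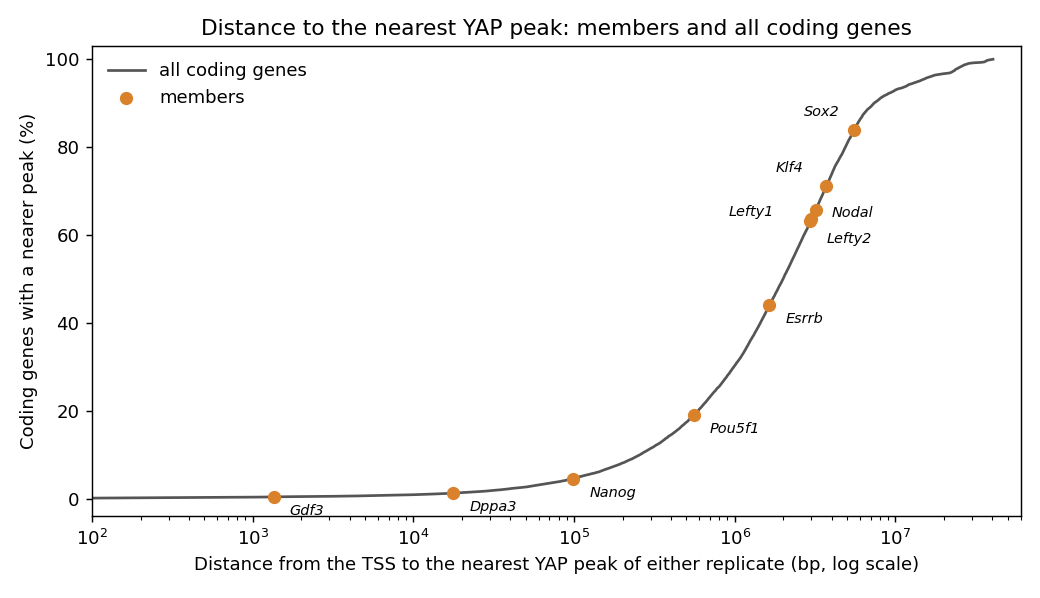
The line gives, for all 22367 coding genes, the share with a peak of either replicate nearer (vertical axis, %) than a given distance from the TSS (horizontal log axis, bp), and the points are the 10 genes. Gdf3, Dppa3 and Nanog are at the lower left and the other genes are spread along the line between Pou5f1 (19.0%) and Sox2 (83.8%).

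The other ligand, Nodal, and its inhibitors had no peak within 500 kb in either replicate. Nodal, on chromosome 10 with its TSS at 60880720, was 3178377 bp from the nearest peak of replicate 1 (82 tags, score 76.82) and 12855102 bp from that of replicate 2 (20 tags, score 51.82). Lefty1 and Lefty2 are neighbours on chromosome 1, with TSSs at 182865153 and 182823239 that are 41914 bp apart, and they shared their nearest peaks. These were 5213413 and 5255327 bp away in replicate 1 (35 tags, score 57.44) and 2998610 and 2956696 bp away in replicate 2 (24 tags, score 71.49). Gdf3 was the only secreted factor of the set with a YAP peak nearby, and the difference rests on a single weak peak.

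The core transcription factors Pou5f1 and Sox2 likewise had none within 500 kb. Pou5f1, on chromosome 17 with its TSS at 35642982, was the gene closest to that limit from outside. A replicate 2 peak from 36197496 to 36198655 (29 tags, score 51.66) had its summit 554926 bp away and was not found in replicate 1, in which the nearest peak was at 6054609 bp (58 tags, score 57.42). Sox2, on chromosome 3 with its TSS at 34548927, was the farthest of the 10 genes from any peak. Its nearest was at 5523034 bp in replicate 1 (46 tags, score 64.9) and 26302555 bp in replicate 2 (79 tags, score 54.03), and 83.8% of all coding genes had a nearer one.

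Klf4 and Esrrb, the factors of the naive state, were similar. For Klf4, on chromosome 4 with its TSS at 55545347, the nearest peaks were at 3719923 bp in replicate 1 (44 tags, score 57.77) and 14493873 bp in replicate 2 (32 tags, score 50.07). Esrrb, a nuclear receptor gene of 160512 bp on chromosome 12 with its TSS at 87702067, had none within its body and was 1643553 bp from the nearest peak of replicate 1 (23 tags, score 66.37) and 2854293 bp from that of replicate 2 (17 tags, score 57.16). Over the 7 genes outside the chromosome 6 cluster the distance ranged from 1643553 to 6054609 bp in replicate 1 and from 554926 to 26302555 bp in replicate 2. The order of the genes by distance was not the same in the 2 replicates, with Esrrb nearest in replicate 1 and Pou5f1 in replicate 2. Over all coding genes the median distance was 2324265 bp in replicate 1 and 8319435.5 bp in replicate 2, whose list is shorter.

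**Figure D5:**
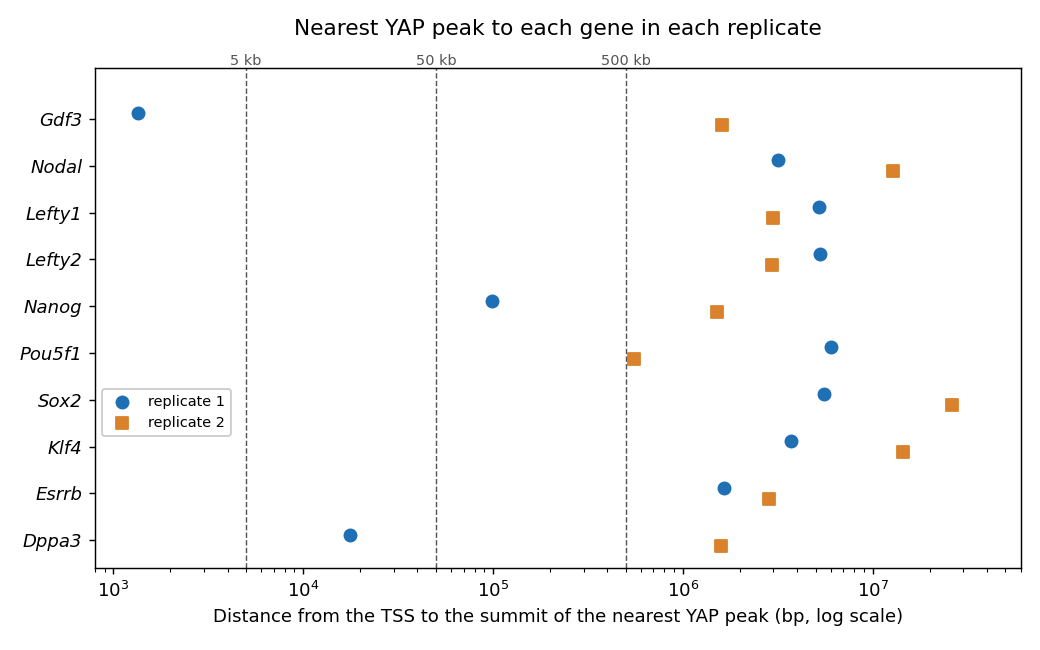
The distance from the TSS of each gene to the summit of the nearest YAP peak (horizontal log axis, bp) is shown for replicate 1 (circles) and replicate 2 (squares), with dashed lines at 5, 50 and 500 kb. In replicate 1, Gdf3, Dppa3 and Nanog are at 1346, 17669 and 98748 bp and the others are beyond 500 kb, and in replicate 2 all 10 are beyond 500 kb.

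The starts of these genes were mostly in single-copy sequence at a length of 25 bases. Within 1 kb on each side of the TSS, single-copy 25-mers made up 83.6% of the sequence for Nodal, 87.4% for Gdf3, 88.3% for Dppa3, 96.6% for Pou5f1, and between 97.9% for Lefty1 and 99.8% for Klf4 for the others. Peaks below the cutoff are not in the lists. The fewest tags in a called peak were 18 in replicate 1 and 15 in replicate 2, and the lowest scores were 50.01 and 50.07, so weaker enrichment at these genes was not detectable with these lists.

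The promoters, taken as 500 bp before to 100 bp after the TSS, were searched for the same 4 motifs on both strands. CATTCC was present in the Lefty1 promoter, with 3 matches, and in none of the other 9, while 26.0% of all coding promoters of this length hold it. CATTGT was present at Nanog, Sox2 and Esrrb, against 21.1% of all promoters. The octamer ATGCAAAT and AATCCACA were in none of the 10 and in 3.12% and 1.87% of all promoters. None of these promoters had a peak, and no match says only that these letters are not in this window. A Lefty1 match and the Nanog match are printed because they are the TEAD and SOX letters at genes of either kind, an inhibitor and a core factor, neither of which had a listed peak within 50 kb of its TSS. The Lefty1 stretch covers chr1:182864743-182864802 and its match begins 383 bp before the TSS. The Nanog stretch covers chr6:122657413-122657472 and its match begins 67 bp before the TSS, beside an AT-rich octamer-like stretch that is known as part of a joint Pou5f1 and Sox2 element. Both are on the plus strand, in the direction of transcription, with the match in capitals.

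Lefty1 promoter: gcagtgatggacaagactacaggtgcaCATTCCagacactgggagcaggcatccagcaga
Nanog promoter: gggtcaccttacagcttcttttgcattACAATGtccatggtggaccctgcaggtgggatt

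The same distances were taken for 3 lists of related genes, 20 other pluripotency genes, 20 other genes of the Nodal pathway and 16 genes of early lineages, of which 15 were found in the annotation (Sox1 was not). Within 5 kb, where the share of all coding genes was 0.657%, none of these 55 genes had a peak. Within 50 kb, where that share was 2.66%, 1 of the 20 pluripotency genes and none of the others did. This was Tbx3, a T-box factor of naive ESCs, whose TSS was 33607 bp from a replicate 1 peak downstream of the gene (chromosome 5 from 120153726 to 120154584), which held 32 tags, had a score of 71.87 and was not found in replicate 2. Within 500 kb, the counts were 6 of 20 pluripotency genes, 2 of 20 Nodal pathway genes and 1 of 15 lineage genes, beside the 17.4% of all coding genes given above.

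Some of the peaks within 500 kb of these genes differed from that in Gdf3, and they are named after their values were seen. The peak nearest to Stat3, the effector of LIF, was the only one of them found in both replicates, at 232490 bp in replicate 1 (66 tags, score 61.42) and 232287 bp in replicate 2 (54 tags, score 71.59). The highest score was that of a replicate 1 peak at 168823 bp from Tfcp2l1, a naive-state factor, with 152 tags and a score of 250.66. The peak at 353585 bp from Klf5 had 36 tags and no single-copy 25-mer (0%). In the Nodal pathway, Gdf1, a ligand related to Gdf3, was 95311 bp from a replicate 1 peak with 41 tags and a score of 67.59, and Smad4, the common mediator of the pathway, was 372909 bp from a replicate 2 peak with 15 tags and a score of 52.79. Gata4 was the lineage gene with a peak, at 124244 bp in replicate 1 (46 tags, score 63.27).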

How the data were processed

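The deposited peak lists of the 2 anti-YAP replicates were used. To make them, the authors aligned reads to mm9 by bowtie (at most 100 positions per read, each weighted by the inverse of the hits) and ran MACS per replicate, where the file headers name a p-value cutoff of 1e-05 and no control. The number of tags is a count that the authors deposited unscaled. The score deposited is −log10 of the p-value times 10, and the fold enrichment deposited is a ratio to the local background. Summit positions were counted from the deposited start of each peak. Replicate 1 had 27762264 tags (22696949 unique) and replicate 2 had 18187551 (14965024 unique). Unique is the term of the file headers and is not read here as mapped to a single position.

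From these, the distance was taken from the 5′ end of each gene (GENCODE vM1, NCBIM37) to the nearest summit. Counts at 5, 50 and 500 kb used the peaks of either list. Replicates shared a peak when it overlapped by at least 1 bp. Sequence, motif matches and the uniqueness of exact 25-mers came from NCBIM37, which is mm9 and was used without its unplaced sequence. Tfcp2l1 was matched by its older symbol. The 10 genes and the 3 lists were chosen with earlier results of these data known. Named are the 10 genes, listed genes with a peak within 50 kb, the genes of the chromosome 6 cluster and those said to be named later. No test was run. The functions were tested on simulated data. The alternatives were stricter scores and fold enrichments, shared peaks only, leaving out each replicate, peak edges and other TSSs. The work was done in Python 3.11.15 with pandas 2.3.3 and numpy 2.4.6 for tables, numba 0.67.0 for 25-mers, scipy 1.17.1 for the Poisson interval and matplotlib 3.10.9 for plots.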

Additional observations from a re-analysis of the deposited data

How the results depend on the processing

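The counts of genes with a peak, which were 1, 2 and 3 within 5, 50 and 500 kb, became 0 at every distance with a score of at least 100, with a fold enrichment of at least 5, and with only the peaks found in both replicates, whether by an overlap of 1 bp or of 50% of the shorter peak. In each case this is because the Gdf3 peak was removed. Leaving out each replicate gave 0 to 1, 0 to 2 and 0 to 3 genes, with 0 when replicate 1 was left out. Distances to the edge of the peak or to any annotated TSS left the counts at 1, 2 and 3. The median distance of the 10 genes from the nearest peak, 2300124.5 bp, was 8820071.5 bp with a score of at least 100, 14343294.5 bp with shared peaks by either overlap, and 2905494.5 to 3449150 bp without either replicate. These settings only remove peaks, so such a median can stay or rise but not fall, for any set of genes. The median over all coding genes with the stricter settings is not given here. Within 100 bp of the summit the Gdf3 peak had 0 matches to CATTCC in place of 2. Of the 80 alternative distances of single genes, 37 were counted as the same and 43 as moved, judged against the spread of the replicates. That spread was smaller than the full difference between the lists. For Nodal, 10879254 bp with a score of at least 100 counted as moved from 3178377 bp. Its nearest peaks in the 2 lists were at 3178377 and 12855102 bp. The outcomes of leaving out a replicate were fixed in advance, since each distance is that to the nearer peak of the 2 lists. Leaving out the list with the farther peak moves nothing, and leaving out the other moves the distance by the full difference. No paired analysis was possible because only anti-YAP lists were used, and the input with the same replicate numbers was not analysed here. With 2 libraries and 1 condition, the difference between the lists is the only measure of replicate error.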
